A study of Mus musculus with 2 samples.

Results

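The genes described here are 10 genes of bone morphogenetic protein (BMP) signalling: the ligands Bmp4 and Bmp7, the receptor Bmpr1a, the pseudoreceptor Bambi, the inhibitory Smads Smad6 and Smad7, and the Id genes Id1, Id2, Id3 and Id4. They were chosen by name for their roles in the pathway, and all 10 were found among the 16803 genes measured. NE4C is a mouse neural stem cell line, and total RNA was sequenced from 1 untreated culture (control) and from 1 culture exposed to the homocysteine metabolite homocysteine thiolactone (HTL), which reacts with proteins. The study asked whether a raised homocysteine level changes the expression of genes needed for closure of the neural tube. The treatment's dose and duration for these libraries were not given in the sources used here, and both cultures were of the same line. With 1 library per group there was no replicate, so every interval and p-value below covers counting error only and compares these 2 libraries, not the 2 conditions.

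BMPs are secreted proteins that bring together type I and type II receptors at the cell surface. The type I receptor then phosphorylates receptor-activated Smads, which enter the nucleus with Smad4 and switch on target genes, among them the Id genes. Smad6, Smad7 and Bambi are targets that feed back to damp the signal. In the embryo, BMPs made at the dorsal side of the neural tube pattern its dorsal cell types. Id proteins bind basic helix-loop-helix partners, the E proteins, and keep them off DNA, which holds progenitor cells undifferentiated.

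The libraries held 10350646 (control) and 9102057 (HTL treatment) reads assigned to genes, and a gene at 0 could hold up to 3 reads, which is 0.29 and 0.33 CPM (counts scaled to the library total). Of the marker lists, those of neural progenitors had the most members called. Of 8 tested, 4 were called lower in the HTL treatment library: Sox1, Sox2, Sox3 and Vim. Vim fell short of the cutoff under each other scaling. None was called higher, beside 7.98% of all genes called lower and 2.81% called higher. The calls in the other marker lists were Dcx (neuron) and Pdgfrb (mesenchymal) lower and Aldh1l1 (astrocyte) higher, and Pdgfrb too fell short under each other scaling. These calls do not stand for their lists. Of the neuron markers tested 3 had ratios above 0 and 3 below, with Tubb3 (0.60, 0.38 to 0.83) and Stmn2 (0.57, 0.35 to 0.79) higher. Of the mesenchymal markers 4 were above 0 and 2 below. Col1a1 and Col1a2 (1.21 each) and Acta2 (1.07) were past 2-fold but not called. The astrocyte marker Slc1a3 was at 0.00078. The summed FPKM (fragments per kilobase of transcript scaled to the depth of the library) of the progenitor list was 212.91 in the control and 144.69 in the HTL treatment library, and the radial glia marker Fabp7 had 2 reads in each. Pou5f1, a defining gene of pluripotent cells, stood at 1870.45 and 2114.41 FPKM in these libraries labelled as neural stem cells, most of the 1894.98 and 2130.83 FPKM summed over the pluripotent list. Of the other pluripotent markers tested, Nanog had 500 reads in the control and 275 in the HTL treatment library (log2 ratio -0.68) and Esrrb 28 and 54 (1.12). Neither was called, although Esrrb passed both cutoffs under each other scaling. Summed levels for markers of other cell types were 36.11 and 51.16 FPKM for neurons, 18.88 and 20.11 for astrocytes, 4.59 and 4.85 for oligodendrocytes, and 16.18 and 16.53 for mesenchymal cells. Gfap, which defines astrocytes, had 2 reads in the control and none in the HTL treatment library, while Mog and Sox10 of the oligodendrocyte lineage were at 0 in the control. The part of cell makeup in the results below was not tested, and a change in the number of cells of a type cannot be told apart from a change in RNA per cell.

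Id1, Id2, Id3 and Bambi, 4 of the 10 genes, were higher in the library of HTL-treated cells than in the control. None was called lower, and the other 6 did not pass. A gene was called when its adjusted p in the two-sided exact binomial test was at most 0.001 and its log2 ratio of HTL treatment to control was at least 1 in size. Under this rule 10.8% of the 13442 genes tested were called, 2.81% higher and 7.98% lower, so called genes were mostly lower in the HTL treatment library, while the 4 called here were all higher. TMM scaling, edgeR's trimmed mean of M values, shifted the scale between the libraries by 0.13 (log2) and called 553 genes higher and 798 lower, and it left the same 4 genes of the set called. With library totals as the scale, the call of Bambi was lost when its reads were summed with those of a pseudogene copy, as described with that gene. Regardless of p, 4 of the 10 genes lay above the line for a 2-fold rise, as did 4.72% of all genes, and 1 lay below that for a 2-fold fall, as did 12.2% (17% in either direction). Ratios were above 0 for 7 of the 10 and for 41.3% of all genes, and below 0 for 3 and for 58.7%. The median log2 ratio of the 10 genes was 0.67, beside -0.14 over all genes tested. The 40% called higher compares with 2.81% of all genes, although 10 genes picked by name with earlier results of these data known are no sample of the pathway.

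**Figure D1:**
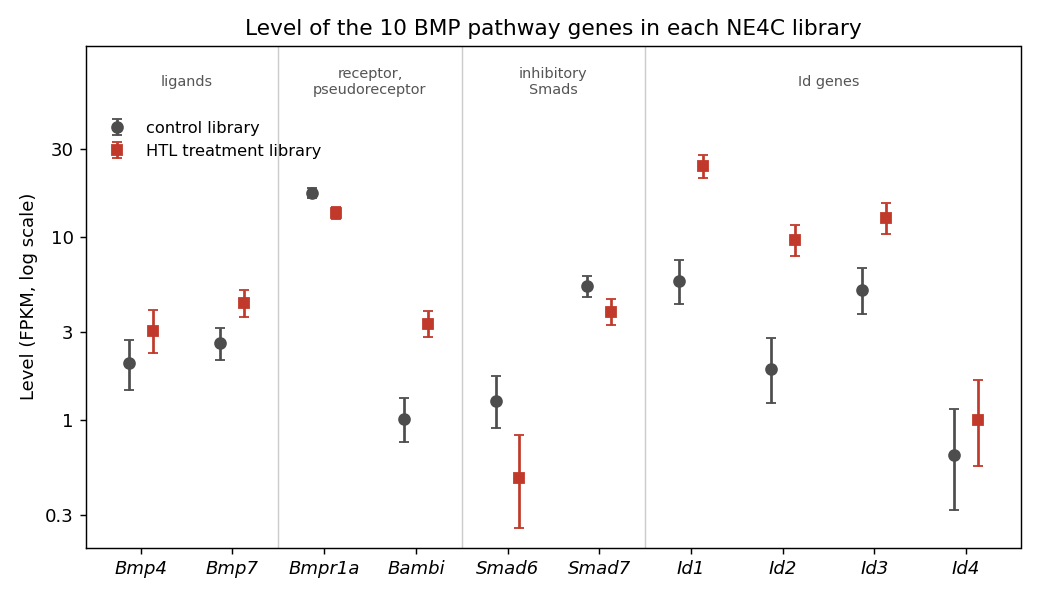
Level of each of the 10 genes in FPKM on a log scale in the control library (grey circles) and the HTL treatment library (red squares), 1 library each, with bars for the 95% Poisson counting interval. The bars of the 2 libraries lie apart for Id1, Id2, Id3 and Bambi, with the HTL treatment library on top, and for Bmp7, Bmpr1a, Smad6 and Smad7 by a smaller gap, while those of Bmp4 and Id4 overlap.

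The ligands were expressed at low levels. Bmp4 (gene 12159; mm9 chr14:47003195-47010344, minus strand), a ligand of the dorsal neural tube and overlying ectoderm, had 42.45 estimated reads in the control and 56.30 in the HTL treatment library, or 2.03 and 3.06 FPKM. Its log2 ratio was 0.59 (95% interval -0.0025 to 1.21), with an adjusted p of 0.0727 in the exact binomial test. The difference was within counting error on this scale, and the adjusted p was 0.0277 with TMM, 0.0275 with median-of-ratios and 0.0362 with upper-quartile scaling in the same exact test. Exons of Bmp4 overlap those of Gm15217 on the opposite strand, and whether counting used strand was not given, so reads of the pair cannot be told apart.

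Bmp7 (gene 12162; mm9 chr2:172693513-172765822, minus strand), a ligand also made dorsally, had 100.18 estimated reads in the control and 146.36 in the HTL treatment library, or 2.62 and 4.34 FPKM. HTL treatment stood 0.73 above control on the log2 scale (0.35 to 1.11) and the adjusted p was 0.000257 in the exact binomial test. This difference was beyond counting error but under the 2-fold cutoff, so the gene was not called. The ratios of the ligands did not differ beyond counting error, with Bmp7 0.13 above Bmp4 on the log2 scale (-0.60 to 0.85). Bmp2, another ligand of the same subgroup as Bmp4, had 2 and 4 reads and was too low to test.

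Bmpr1a (gene 12166; mm9 chr14:35223920-35316527, minus strand), a type I receptor for BMPs, was the most abundant of the 10 genes in the control. It had 994 reads in the control and 680 in the HTL treatment library, or 17.33 and 13.46 FPKM. Its log2 ratio was -0.36 (-0.51 to -0.22; adjusted p = 1.47e-06, exact binomial test), beyond counting error and far from a 2-fold difference. The adjusted p alone was at most 0.001 for 38.6% of all genes, so such a p was common. With TMM scaling the ratio was -0.23 and the adjusted p was 0.003. Its exons overlap those of Gm17110 on the opposite strand.

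Bambi (gene 68010), a membrane protein that resembles a type I receptor but lacks the kinase domain, had 53.07 estimated reads in the control and 155.06 in the HTL treatment library. Its level rose from 1.01 to 3.34 FPKM. This is a log2 ratio of 1.72 (1.28 to 2.21), and the adjusted p was 5.52e-15 in the exact binomial test, which placed the gene at rank 157 of 13442 by log2 ratio. The estimated reads of Bambi and of its pseudogene copy Bambi-ps1 were both fractional, as were 21.8% of control and 20.2% of HTL treatment values. A division of reads between these 2 genes would bear on the ratio, but which genes shared reads was not tested. Bambi-ps1 had 64.10 estimated reads in the control and 43.04 in the HTL treatment library (log2 ratio -0.38, interval -0.98 to 0.19). Summed, the pair had 117 and 198 reads, and its ratio was 0.94 on the log2 scale (0.61 to 1.29), higher in the HTL treatment library beyond counting error and short of the 2-fold cutoff. With the other scalings the summed ratio lay just past it, at 1.07 with TMM, 1.08 with median-of-ratios and 1.03 with upper-quartile scaling.

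The inhibitory Smads had ratios on the other side of 0. Smad6 (gene 17130; mm9 chr9:63800953-63869866, minus strand), which acts chiefly on BMP receptors and Smad1, had 39 reads in the control and 13 in the HTL treatment library, or 1.26 and 0.48 FPKM. Its log2 ratio was -1.37 (-2.43 to -0.46). The adjusted p of 0.00445 in the exact binomial test missed the cutoff, so the gene was not called. It was the 1 gene of the set with a ratio below the 2-fold line, which 12.2% of all genes tested passed in that direction regardless of p. With 13 reads in the HTL treatment library, the lower bound of the interval lies more than 1 log2 unit from the estimate.

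Smad7 (gene 17131), which acts on both BMP and TGF-beta receptors, had 248 reads in the control and 159 in the HTL treatment library, or 5.35 and 3.89 FPKM. The log2 ratio was -0.45 (-0.75 to -0.16; adjusted p = 0.00404, exact binomial test). With median-of-ratios scaling the adjusted p was 0.0565. Without the 0.5 read added to each ratio, those of Smad7 and Smad6 differed by 0.94 on the log2 scale. The interval of -0.048 to 2.02 includes 0. Neither gene passed the rule for a change.

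The sequence around the start site is shown for Smad6 because it carries a Smad-binding palindrome, GTCTAGAC, in capitals. The 300 bases run 5' to 3' on the gene's strand from 250 before to 50 after the RefSeq start (GRCm38.p6 chr9:64022010-64022309, minus strand).
Smad6: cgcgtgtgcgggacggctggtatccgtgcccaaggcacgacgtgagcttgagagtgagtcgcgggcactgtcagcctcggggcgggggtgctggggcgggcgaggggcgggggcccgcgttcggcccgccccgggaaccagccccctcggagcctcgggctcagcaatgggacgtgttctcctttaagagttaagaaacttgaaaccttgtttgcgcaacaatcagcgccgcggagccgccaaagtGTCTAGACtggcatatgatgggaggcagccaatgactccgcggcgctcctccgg
The palindrome begins 4 bases before the start and was searched for after this sequence had been seen. It occurs in 0.213% of the 32851 promoters of the same length, and its last 4 letters are also the last 4 of the shorter Smad-binding motif CAGAC. A match is a description of the letters and shows no binding.

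Id2 and Id1 had the highest ratios of the set. Id1 (gene 15901; mm9 chr2:152561987-152563146, plus strand), the Id gene most often used as a readout of BMP signalling, had 54 reads in the control and 202 in the HTL treatment library. Its level rose from 5.71 FPKM (4.29 to 7.45) to 24.25 FPKM (21.02 to 27.8), and its reads, scaled to library totals with 0.5 read added, rose 4.22-fold. On the log2 scale the rise was 2.08 (1.65 to 2.55), and the adjusted p was 8.78e-25 in the exact binomial test. In the HTL treatment library Id1 stood above Bmpr1a and was the most abundant of the 10 genes.

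Id2 (gene 15902; mm9 chr12:25778666-25780957, minus strand), expressed widely in neural progenitors and neural crest, had 25 reads in the control and 111 in the HTL treatment library. Its level rose from 1.90 FPKM (1.23 to 2.80) to 9.55 FPKM (7.86 to 11.5), and its scaled reads rose 4.96-fold. The log2 ratio was 2.31 (1.70 to 3.02; adjusted p = 5.78e-16, exact binomial test). This ratio was the highest of the 10 genes and ranked 66 of 13442, ahead of Id1 at rank 95. The difference between Id1 and Id2, -0.25 on the log2 scale (-1.07 to 0.55), was within counting error.

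Id3 (gene 15903; mm9 chr4:135699412-135701670, plus strand), which overlaps with Id1 in function in the embryonic brain, had 50 reads in the control and 109 in the HTL treatment library. Its level rose from 5.12 FPKM (3.80 to 6.75) to 12.66 FPKM (10.4 to 15.3), and its scaled reads rose 2.46-fold. The log2 ratio was 1.30 (0.81 to 1.82; adjusted p = 1.71e-07, exact binomial test), at rank 340. The ratio was lower than that of Id1 by 0.78 (0.092 to 1.46) and lower than that of Id2 by 1.02 (0.19 to 1.88), both beyond counting error.

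Id4 (gene 15904; mm9 chr13:48356796-48359405, plus strand), the member that in the brain supports proliferation of neural progenitors, was close to the limit of detection with 11 reads in the control and 15 in the HTL treatment library. These counts correspond to 0.64 FPKM (0.319 to 1.15) and 1.00 FPKM (0.560 to 1.65). The log2 ratio was 0.61 with an interval of -0.59 to 1.90 (adjusted p = 0.420, exact binomial test), and no difference was detectable at this depth. Id1 exceeded Id4 in log2 ratio by 1.45 (0.096 to 2.76) and Id2 exceeded it by 1.69 (0.25 to 3.11), whereas Id3 and Id4 could not be separated (0.67, -0.70 to 2.01). Exons of Id4 overlap those of A330033J07Rik on the opposite strand.

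**Figure D2:**
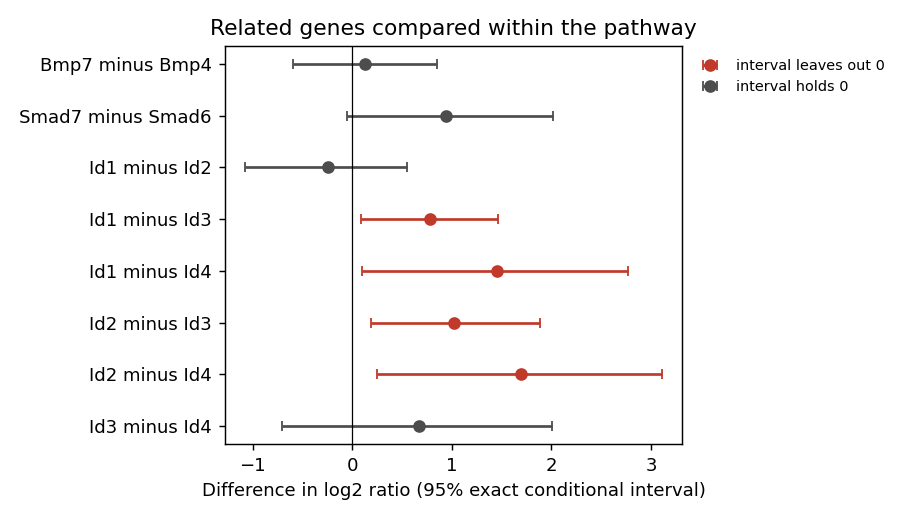
Difference between the log2 ratios (HTL treatment over control) of 2 genes of the same family, as points with 95% exact conditional intervals, and a vertical line at 0 for no difference. Of the 8 pairs, Id1 over Id3, Id1 over Id4, Id2 over Id3 and Id2 over Id4 have intervals above 0, and the other 4 include 0.

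The start-site regions of Id2, Id3 and Id4 are printed because Id2 and Id3 rose by different amounts and Id4 did not pass. Each holds 300 bases, 5' to 3' on the gene's strand, from 250 before to 50 after the RefSeq start in GRCm38.p6: chr12:25096043-25096342 (minus strand) for Id2, chr4:136143572-136143871 (plus strand) for Id3 and chr13:48260866-48261165 (plus strand) for Id4. Capitals mark the BMP-responsive GC-rich motif GGCGCC and the Smad-binding motif CAGAC, searched on both strands.
Id2: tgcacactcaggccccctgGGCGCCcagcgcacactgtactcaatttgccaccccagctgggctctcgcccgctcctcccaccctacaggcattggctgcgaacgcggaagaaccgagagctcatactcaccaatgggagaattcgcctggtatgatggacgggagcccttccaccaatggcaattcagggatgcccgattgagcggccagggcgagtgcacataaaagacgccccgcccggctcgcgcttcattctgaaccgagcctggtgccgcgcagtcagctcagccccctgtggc
Id3: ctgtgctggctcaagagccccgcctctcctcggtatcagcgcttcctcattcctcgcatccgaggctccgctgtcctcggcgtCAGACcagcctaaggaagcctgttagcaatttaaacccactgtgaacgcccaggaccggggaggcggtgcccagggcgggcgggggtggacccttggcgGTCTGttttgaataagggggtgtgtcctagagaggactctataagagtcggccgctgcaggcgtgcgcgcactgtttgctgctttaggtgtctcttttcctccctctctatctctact
Id4: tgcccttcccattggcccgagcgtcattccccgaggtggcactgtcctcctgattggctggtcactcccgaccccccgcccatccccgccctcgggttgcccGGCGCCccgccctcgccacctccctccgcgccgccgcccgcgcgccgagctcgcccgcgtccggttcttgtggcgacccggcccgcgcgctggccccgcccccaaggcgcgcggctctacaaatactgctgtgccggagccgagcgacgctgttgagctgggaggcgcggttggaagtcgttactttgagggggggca
GGCGCC begins 231 bases before the start of Id2 and 148 before that of Id4. Id3 holds CAGAC at 167 bases before its start and on the other strand, read as GTCTG, at 68 before it. GGCGCC occurs in 11.9% and CAGAC in 49.6% of the 32851 promoters of this length, so CAGAC in particular is common. Id2 and Id4 hold GGCGCC, and Id3 holds none in this window. Whether either motif bears on the ratios was not tested. Promoters were matched for 6 of the 10 genes. Those of Bmp7, Bambi, Smad7 and Id1 are not shown, and Bmpr1a holds GGCGCC at 198 bases before its start.

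Together the Id genes had 140 reads in the control and 437 in the HTL treatment library, and their summed level was 13.37 and 47.46 FPKM. The log2 ratio of the summed reads was 1.83 (1.55 to 2.11). The E proteins that Id proteins bind, Tcf3, Tcf4 and Tcf12, summed to 3089 and 2512 reads, or 70.65 and 66.77 FPKM, with a log2 ratio of -0.11 (-0.19 to -0.036). Their ratio was close to the median of all genes, -0.14, and the shift of 0.13 under TMM scaling would turn its sign, whereas that of the Id genes lay far above it. Id transcripts therefore stood at 0.189 FPKM per FPKM of E protein transcripts in the control and at 0.711 in the HTL treatment library. Within the E proteins, Tcf4 was called lower at 618 and 267 reads (-1.02, -1.24 to -0.82), and it fell short of the 2-fold cutoff under each of the other scalings, at -0.89 by TMM. Tcf12 lay on the other side of 0 with 1195 and 1258 reads (0.26, 0.14 to 0.38) and Tcf3 had 1276 and 987 (-0.18, -0.31 to -0.064), so the sum joins ratios of opposite sign.

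**Figure D3:**
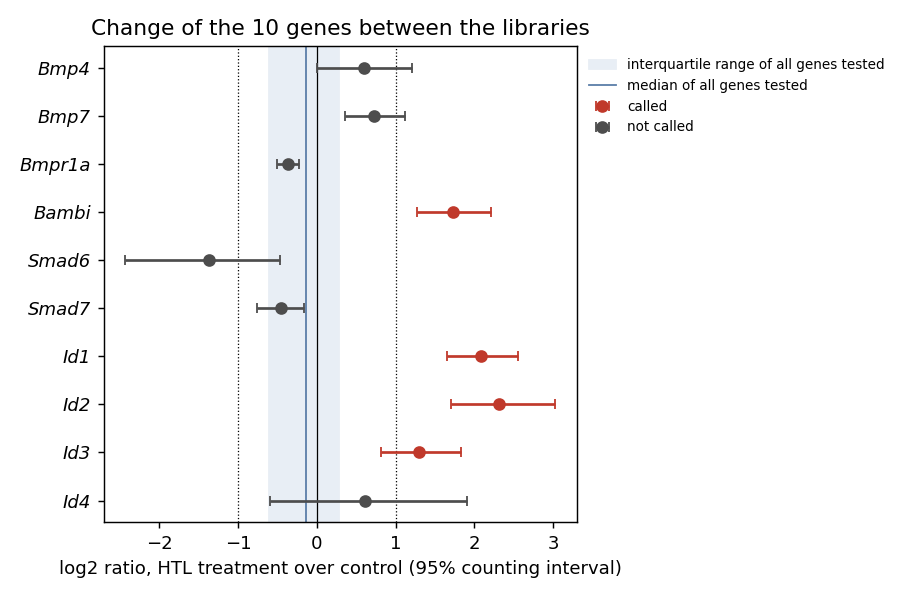
Log2 ratio of HTL treatment over control for each of the 10 genes with its 95% exact Clopper-Pearson interval; the shaded band is the interquartile range of all genes tested, -0.60 to 0.28, and the dotted lines mark 2-fold. Id2, Id1, Bambi and Id3 lie above the upper line, Smad6 below the lower one, and the ratios of Bmpr1a and Smad7 fall inside the band.

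The log2 ratio moved with transcript length across all genes, from a median of 0.14 in the shortest of 10 equal bins of tested genes (67 to 1180 bases) to -0.38 in the longest. Id1 and Id3, with transcripts of 934 and 964 bases, belonged to the shortest bin, and Bambi, at 5040 bases, to the second longest, where the median was -0.28. Set against the median of their own bin, the log2 ratios were 1.94 for Id1, 2.33 for Id2, 1.16 for Id3 and 2.0 for Bambi. These 4 remained above 1 on that scale. Smad6 was at -1.20, Smad7 at -0.25 and Bmpr1a at -0.082, the last close to other genes of its length.

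**Figure D4:**
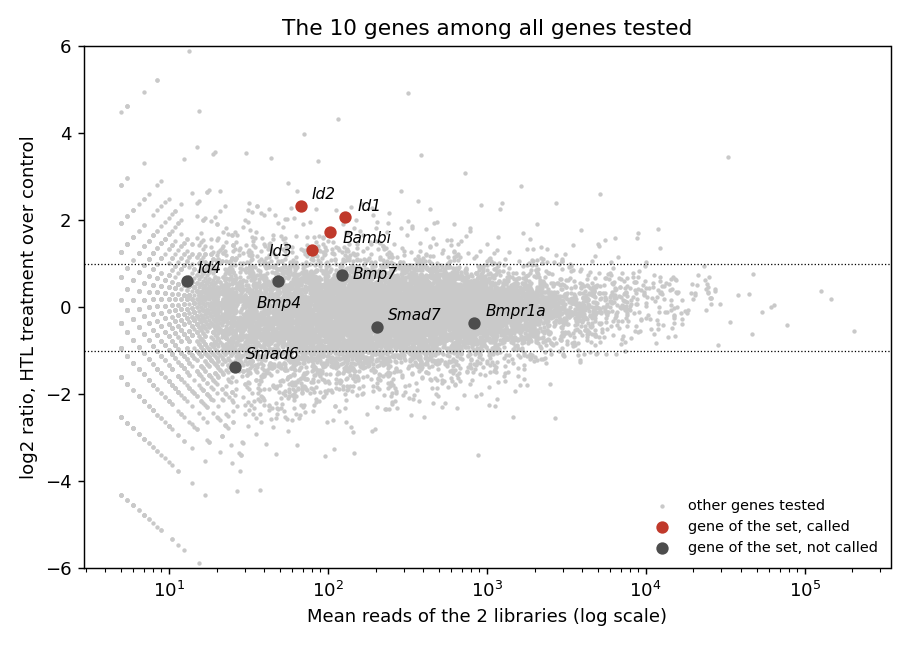
Log2 ratio of HTL treatment over control against the mean reads of the 2 libraries (log scale) for the 13442 genes tested, with the 10 genes named and the called ones in red; 16 points lie outside the vertical axis. The called genes sit above the line for a 2-fold rise, and Id4 and Smad6 lie furthest to the left, where the scatter between the libraries is widest.

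By level, the genes stood in the order Bmpr1a, Id1, Smad7, Id3, Bmp7, Bmp4, Id2, Smad6, Bambi and Id4 in the control. Only 2 of the 9 pairs of neighbours differed beyond counting error there: Bmpr1a was 3.04 times Id1 (2.31 to 4.07) and Id3 was 1.95 times Bmp7 (1.37 to 2.78), both on the FPKM scale. In the HTL treatment library the order was Id1, Bmpr1a, Id3, Id2, Bmp7, Smad7, Bambi, Bmp4, Id4 and Smad6. Here 4 of 9 neighbours differed: Id1 was 1.80 times Bmpr1a (1.53 to 2.11), Id3 was 1.33 times Id2 (1.01 to 1.74), Id2 was 2.20 times Bmp7 (1.71 to 2.84) and Bmp4 was 3.06 times Id4 (1.70 to 5.79). Id2 moved up from the seventh place to the fourth, and Smad6 moved to last.

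With library totals as the scale, the share of calls among the other genes of the pathway was near the background. Of 111 listed, 103 were in the table and 74 could be tested, and 3 were called higher and 6 lower, which is 12.2% beside 10.8% of all genes. Their median log2 ratio was 0.13. With TMM scaling 6 of the 74 were called higher and 5 lower, beside 553 and 798 of all 13442 genes. Median-of-ratios scaling also gave 6 and 5, beside 559 and 788, and upper-quartile scaling 5 and 5, beside 498 and 860.

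Among the 9 other BMP and growth differentiation factor ligands tested, none was called with library totals as the scale. Gdf3, the most abundant of them, stood at 49.67 FPKM in the control and 37.67 in the HTL treatment library (-0.39, -0.53 to -0.26). Gdf15, a stress-induced factor, had 1 and 13 reads (3.32, 1.15 to 9.30; adjusted p = 0.0014, exact binomial test), and it was called with TMM and median-of-ratios scaling. No call was made among the 8 receptors and co-receptors either, which differed in sign: the type II receptors Acvr2b (-0.89, -0.99 to -0.80) and Bmpr2 (-0.67, -0.88 to -0.47) were on the negative side, and Acvr2a (0.68, 0.44 to 0.93) and the type I receptor Acvr1 (0.63, 0.36 to 0.91) on the positive. All 4 Smads that carry the BMP signal had ratios above 0 without a call, beside 41.3% of all genes above 0. Smad1 had 292 and 402 reads (0.65, 0.43 to 0.87), Smad5 461 and 497 (0.29, 0.11 to 0.48), and Smad4 854 and 910 (0.28, 0.14 to 0.41). Smad9, with 24 and 30 reads (0.50, -0.32 to 1.35), was within counting error.

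Of 14 secreted antagonists and modulators, 1 was called, which is 7.14% beside 10.8% of all genes. Fst, which encodes follistatin, an antagonist of activins that also binds BMPs, fell from 394 to 98 reads (-1.82, -2.16 to -1.50; adjusted p = 4.83e-34, exact binomial test). Noggin (Nog), the classical BMP antagonist, had 15 and 14 reads. Nbl1, another antagonist, was just under the cutoff at 50 and 88 reads (0.99, 0.48 to 1.53), and it was called higher under each other scaling. Among 12 ubiquitin ligases and nuclear repressors of Smads, Zeb2, a Smad-interacting transcriptional repressor, was the 1 called gene (8.33%, near the background), with 661 and 248 reads (-1.23, -1.45 to -1.02). Smurf1, a ligase that works with the inhibitory Smads, had 492 and 574 reads (0.41, 0.23 to 0.58).

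The transcription factors known to respond to BMP were the list with a median furthest above 0, at 1.20, with 8 of 9 tested above 0 beside 41.3% of all genes. It held the 3 pathway genes called higher, beside 2.81% of all genes. With FPKM plus 1, only 1 pathway gene was called higher, beside 241 of all 13442 genes. Gata2 rose from 22 to 75 reads (1.93, 1.25 to 2.71), Msx2, a dorsal neural tube gene, from 11 to 33 (1.72, 0.75 to 2.90) and Gata3 from 72 to 147 (1.21, 0.80 to 1.64). Their adjusted p in the exact binomial test were 5.50e-09, 0.000556 and 7.61e-09. Hey1 had 22 and 45 reads (1.20, adjusted p = 0.00213 in the exact binomial test) and Dlx5 2 and 13, neither past the cutoffs, although Hey1 passed them under each other scaling. Msx1, with 16 and 8 reads, was the 1 gene below 0 (-0.78, -2.25 to 0.49). This list overlaps in role with the Id genes, and it too was written with earlier results known.

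The TGF-beta, activin and Nodal branch, which shares Smad4 and Smad7 with the BMP branch, had 3 of 14 genes called, all lower, beside 7.98% of all genes called lower, and 10 of 14 had ratios below 0 beside 58.7% of all genes. Tdgf1, the Nodal co-receptor, had 3968 reads in the control and 1017 in the HTL treatment library (-1.78, -1.88 to -1.68). The co-receptor Tgfbr3 had 252 and 54 (-2.03, -2.49 to -1.61) and the ligand Tgfb3 had 82 and 14 (-2.33, -3.30 to -1.54). Nodal itself (1393 and 782 reads, -0.65) and its target and antagonist Lefty1 (1786 and 1050, -0.58) had ratios below 0 and were not called. The summed level of this list was 428.09 FPKM in the control and 223.48 in the HTL treatment library, and its median log2 ratio was -0.33.

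**Figure D5:**
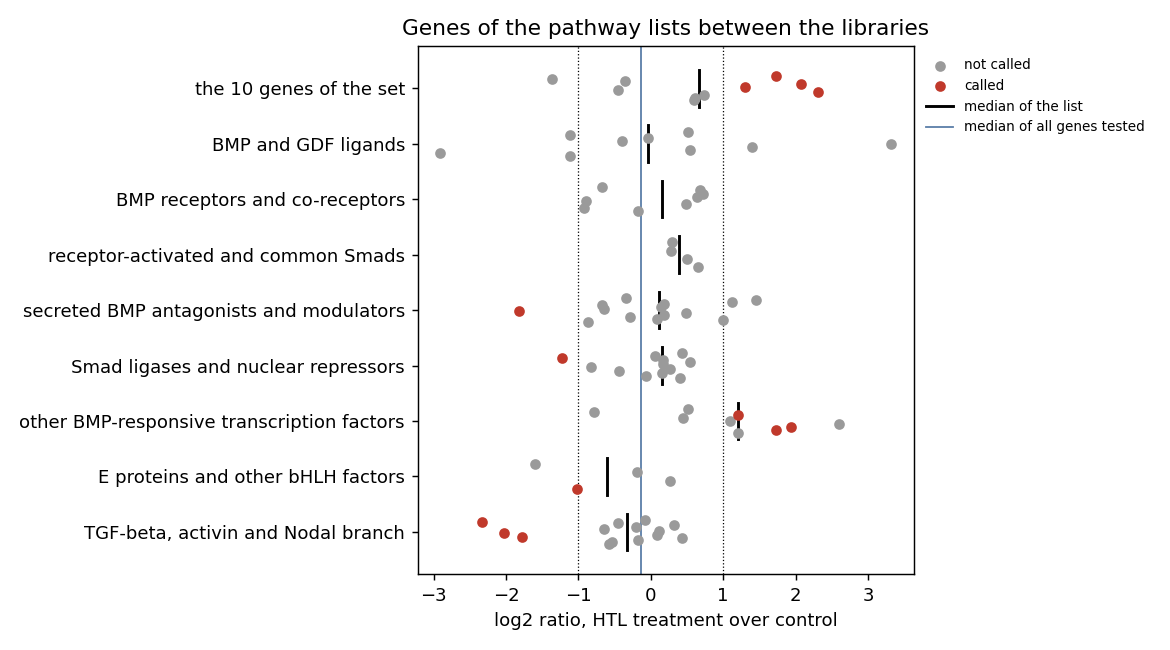
Log2 ratio of HTL treatment over control of each tested gene of the 10-gene set and of the 8 other pathway lists, 1 point a gene, with called genes in red, the median of each list as a black bar and the median of all genes tested as a blue line. The 10-gene set and the BMP-responsive transcription factors have their medians at 0.67 and 1.20, and the TGF-beta, activin and Nodal branch at -0.33.

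Without replicates, the spread between cultures is unknown. At an assumed coefficient of variation of 0.1 between cultures the same 4 genes of the set were called in the exact test of edgeR. Of all 13442 genes, 1127 were called there, 296 higher and 831 lower. When a coefficient of variation of 0.2 was assumed in that exact test, only Id2 among the 10 genes was still called (adjusted p = 0.000936), with Id1 at 0.00118, Bambi at 0.0110 and Id3 at 0.105. At an assumed 0.4 no gene of the set was called. Of all genes, 120 were called at 0.2 (38 higher, 82 lower) and 6 at 0.4 (1 higher, 5 lower).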

How the data were processed

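RNA-seq of NE4C cells comprised 1 control and 1 HTL treatment library. Groups were taken from the sample titles. Per the labels, libraries were made with a TruSeq kit. Per the study's methods, the authors sequenced them on a BGISEQ-500, mapped the reads to mouse sequences and ran RSEM to estimate the reads of each gene. The submitters' processing notes name mm9. The mapper, versions, annotation and use of strand are not given in the sources used here. The estimated counts (expected counts) deposited by the authors were not normalized, and 21.8% of control and 20.2% of HTL treatment values were fractional because RSEM splits reads between similar genes. The FPKM values deposited by the authors are scaled to transcript length and library size. The log2 ratio, the p-value and the FDR deposited by the authors hold their own comparison and were not used.

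Estimated counts were rounded. Testing covered the 13442 genes whose reads summed over the libraries reached 10, and passed over 3361. Each gene's reads were compared with the library totals by the two-sided exact conditional binomial test (R 4.3.3) with Benjamini-Hochberg adjustment over all genes tested. Poisson intervals and those of differences between genes were computed with scipy 1.17.1. The cutoffs, an adjusted p up to 0.001 with a log2 ratio of 1 or more in size, follow the study's methods. Before ratios were formed, 0.5 read was added in proportion to library size. Intervals are exact at 95% (Clopper-Pearson for ratios, Poisson for FPKM) and cover counting error only, since each group had 1 library. With no molecular identifiers, 1 molecule can give several reads, so the intervals may be too narrow even for counting error. Without replicates, neither edgeR's quasi-likelihood model (4.0.16) nor DESeq2 could be fitted. The test was checked on counts simulated with Poisson error alone, so the check cannot speak to variation between cultures. The genes changed in it all had more reads than Id4 or Smad6. The naming rule took all 10 genes and every called gene of the other lists; other genes named beside them were picked after their values were seen. The genes, lists and tests were chosen with earlier results of these data known. Promoter sequences came from RefSeq (GRCm38.p6), and gene positions from GENCODE on mm9. The alternatives were other scalings, no filter, 5 reads added, FPKM with 1 added, assumed variation between cultures, the adjusted p alone, ratios relative to genes of like length and the sum of rows with the same best protein match, which joined no other row to any of the 10 genes. Summing Bambi with Bambi-ps1, under each scaling, was chosen after seeing the data.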

Additional observations from a re-analysis of the deposited data

How the results depend on the processing

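The log2 ratio of each of the 10 genes kept its sign under the 6 alternatives that could move it (the other 3 scalings, 5 reads added, FPKM plus 1, and genes of like length). Apart from the sum of Bambi with Bambi-ps1, the remaining alternatives did not alter the ratio. It ranged from 1.91 to 2.21 for Id1, 1.86 to 2.45 for Id2, 1.16 to 1.44 for Id3, 0.94 to 2.0 for Bambi and -1.37 to -0.61 for Smad6. The lowest value for Bambi, 0.94, was that summed with Bambi-ps1, where it was no longer called; under the other scalings the sum stood at 1.03 to 1.08. Of all genes, 816 were called with FPKM plus 1 (241 higher, 575 lower), and 120 (38 and 82) and 6 (1 and 5) in the exact test of edgeR once a coefficient of variation between cultures of 0.2 and 0.4 was assumed. The adjusted p alone called 5193 (1955 and 3238). Within the 10 genes, 4 were called at an assumed 0.1, 1 at 0.2 and 0 at 0.4. At 0.1, 1127 of all genes were called (296 higher, 831 lower). Of the other pathway genes, 8 were called at 0.1 (2 higher, 6 lower), and 0 at 0.2 and at 0.4. With FPKM plus 1 there were 6 (1 and 5), and 30 by the adjusted p alone (14 and 16). Median-of-ratios scaling called 559 genes higher and 788 lower and upper-quartile scaling 498 and 860. No paired analysis was possible because each group had 1 library, and leaving out a library could not be run for the same reason. The spread between cultures is unknown, and for genes near 10 reads, such as Id4, only differences of several fold are detectable.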

Other observations

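The deposited table carries gene ontology terms, and 3 of them bear on this pathway. The choice of terms was made with their values in view. Of 50 genes annotated to BMP signalling, 38 were tested and 4 were called, which is 10.5% beside 10.8% of all genes. Msx2, Gata4 and Notch1 were higher and Sulf1 was lower in the HTL treatment library, beside 2.81% of all genes called higher and 7.98% called lower. Gata4, a transcription factor of heart and endoderm, had 27 reads in the control and 75 after HTL treatment (log2 ratio 1.64, 1.01 to 2.35). Notch1, the receptor that keeps neural progenitors from differentiating, had 124 and 231 reads (1.08). Sulf1, a sulfatase that trims heparan sulfate and so alters growth factor binding, had 1468 and 606 reads (-1.09), and it fell short of the 2-fold cutoff under each other scaling.

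Of 64 genes annotated to TGF-beta receptor signalling, 60 were tested, and 2 were called higher and 4 lower, which is 10% and near the background. The higher genes were Bambi and Hspa5, a chaperone of the endoplasmic reticulum, and the lower genes were Tgfb3, Tgfbr3, Tdgf1 and Pmepa1. Hspa5 had 6184 reads in the control and 59487 in the HTL treatment library (3.45, 3.41 to 3.49). Pmepa1, which encodes a membrane protein that holds back Smad signalling, had 1975 reads in the control and 579 in the HTL treatment library (-1.58, -1.72 to -1.45). Of 24 genes annotated to activin receptor signalling, 17 were tested, and Fst and Tdgf1 were the 2 called, both lower, which is 11.8% beside 10.8% of all genes.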
